A study of Mus musculus with 15 samples.

Results

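The suppressors of cytokine signalling form a family of 8 mouse genes, Socs1 to Socs7 and Cish, and all 8 were found by symbol among the 17493 genes counted in 15 libraries of CD8+ OT-I T cells. The family was picked because its expression was known to differ between the stimuli in these data, so differences between the stimuli are described here without a test. OT-I cells all bear the same transgenic T cell receptor, which recognises a peptide of ovalbumin on MHC class I. Every library came from this strain (C57BL/6-Tg(TcraTcrb)1100Mjb/Crl, female, age not given), with cells taken from spleen and lymph nodes, and each of the 5 groups held 3 libraries. Unstimulated cells (0 h) received no treatment. The IF groups were stimulated for 8 h or 22 h with immunofilaments at 5 ng/ml, synthetic filaments bearing MHC loaded with the peptide SIITFEKL and interleukin-2 (IL-2). The DC groups were stimulated for 8 h or 22 h with 20000 dendritic cells per well, raised with Flt-3 ligand and loaded with the same peptide. Wells held 50000 T cells, and viable CD8+ CD103- cells were sorted before RNA extraction. The replicate numbers 1 to 3 carry the prefix Don in the labels, which do not say whether libraries came from separate animals or cultures, so p-values measure the spread between these libraries, which may be technical.

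Cytokines of the IL-2, interferon and IL-6 families act through receptors that carry JAK kinases, which phosphorylate STAT transcription factors. STATs switch on Cish and several Socs genes, whose proteins then turn down the same pathway: the SH2 domain binds phosphorylated receptors or kinases, and the SOCS box recruits elongin B, elongin C and cullin 5 to form a ubiquitin ligase. SOCS1 and SOCS3 also carry a region that blocks JAK activity. In CD8 T cells, SOCS1 and CIS (the Cish product) are known as brakes on responses to cytokines and antigen.

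Libraries held 2892874 to 19806730 counts, and expression is given as normalised read counts (CPM, scaled to TMM-adjusted library totals). Levels are compared between libraries for 1 gene at a time, never between genes. Statements that ranges of groups overlap or lie apart are descriptions, not tests. By random order alone, 3 against 3 libraries separate fully in a share of 0.1. How many of all tested genes separate in the same way was not counted. All 9 detected CD8 T cell markers were present in every library, but their sum was 8871 to 9603 CPM in unstimulated cells and 4045 to 6435 CPM in the stimulated groups. Of these 9, edgeR called 6 lower after 8 h and 5 after 22 h of immunofilaments, 8 and 6 lower with dendritic cells, and 0 higher. B cell (6.33 to 46.5 CPM) and CD4 T cell markers (0.698 to 10.3 CPM) were low, and macrophage and neutrophil markers summed to 8.37 to 23.3 CPM in unstimulated cells and at most 3.32 CPM elsewhere. NK cell markers, a list that includes Eomes, which CD8 T cells also express, summed to 119 to 133 CPM in unstimulated cells. Their sum was 225 to 353 CPM (8 h) and 334 to 401 CPM (22 h) with immunofilaments, and 135 to 257 CPM (8 h) and 85.1 to 141 CPM (22 h) with dendritic cells. The CD8 T cell and the macrophage and neutrophil sums thus lay below the unstimulated range in all 4 stimulated groups, and the NK cell sum lay above it in all but DC 22 h; their part in the SOCS changes was not tested. IF 22 h replicates 2 and 3 stood apart in mitochondrial ribosomal RNA, at 0.179% and 0.146% of counts, against 1.82% to 4.49% in the other 13 libraries, so IF 22 h results are also given without them.

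Dendritic cell RNA was measured because the DC wells contained these cells. Summed levels of 23 dendritic cell markers were 1537 to 1712 CPM at DC 8 h and 1017 to 1275 CPM at DC 22 h. They were 1042 to 1915 CPM in unstimulated cells, 706 to 878 CPM at IF 8 h and 681 to 979 CPM at IF 22 h. Every DC 8 h library lay above every library outside the DC groups except unstimulated replicate 3, the one at 1915 CPM. DC 22 h replicate 2 held 519 of its 1275 CPM in Irf8 alone, against 27.3 and 46.7 CPM of Irf8 in the other DC 22 h libraries. In unstimulated libraries 3 to 6 genes of the list were at 0. After 8 h, 4 to 9 were at 0 with immunofilaments and 0 to 2 with dendritic cells; after 22 h these were 0 to 3 and 1 to 2. The markers did not move as one, and those named here were chosen after their values were seen. Fscn1, an actin-bundling protein of mature dendritic cells, lay at 126 to 168 CPM at DC 8 h and 72.9 to 94.8 CPM at DC 22 h, against 0 to 6.75 CPM in unstimulated cells, 0.268 to 0.663 CPM at IF 8 h and 5.83 to 43.8 CPM at IF 22 h. Zbtb46, a transcription factor of conventional dendritic cells, was at 0 in every unstimulated and IF 8 h library and at 0.120 to 0.408 CPM at IF 22 h, but at 1.17 to 2.28 CPM in DC 8 h and 0.442 to 0.684 CPM in DC 22 h libraries. In the opposite direction, Itgax (CD11c) was at 2.05 to 7.69 CPM in the 6 DC libraries, 12.8 to 16.3 CPM in unstimulated cells and 11.1 to 31.8 CPM in the IF libraries. Xcr1 and Cst3 lay below their unstimulated ranges (9.54 to 45.6 CPM and 174 to 291 CPM) in every stimulated library. Xcr1 was at 0.111 to 3.35 CPM in DC and 0 to 9.38 CPM in IF libraries, and Cst3 at 89.7 to 169 CPM in DC and 67.8 to 94.5 CPM in IF libraries, with those of DC 8 h (112 CPM or more) above every IF library. At DC 8 h the ranges of Relb, Ccr7 and Cd200 overlapped those of an IF group or of unstimulated cells. Compared with unstimulated cells, 5 of 20 tested markers were higher and 0 lower at DC 8 h, and 4 were higher and 4 lower at DC 22 h. Of all tested genes, 6.82% and 7.76% were called there in either direction. With immunofilaments 3 of the 20 were higher and 5 lower at 8 h, and 3 higher and 3 lower at 22 h. The shares of all tested genes were 7.76% and 6.08% in these IF comparisons. The part of such RNA in the SOCS values of the DC libraries was not tested. In bulk samples, fewer cells of a type and less RNA per cell cannot be told apart.

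**Figure D1:**
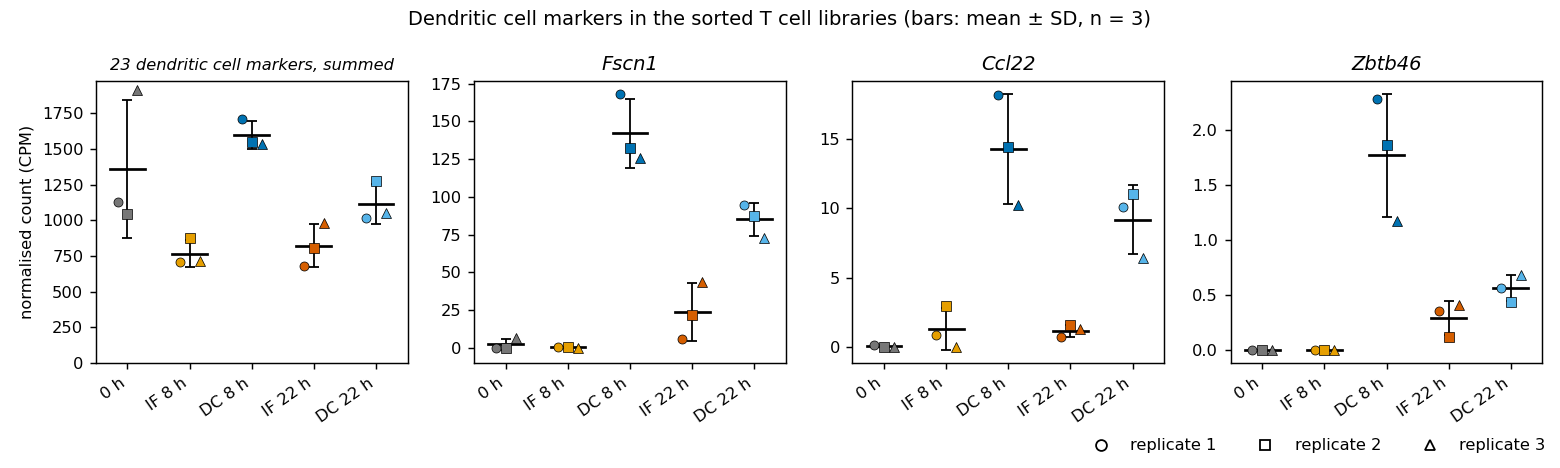
Normalised read counts (CPM, y axes) in the 5 groups (x axes) for the sum of 23 dendritic cell markers and for Fscn1, Ccl22 and Zbtb46. Symbols are libraries, bars are the mean ± SD of 3; the sum spans 1042 to 1915 CPM in unstimulated cells and 1017 to 1275 CPM at DC 22 h, while Fscn1 is at 72.9 CPM or more in all 6 DC libraries and at 43.8 CPM or less elsewhere.

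The promoters of Cish, Socs3 and Socs1 are shown because these genes changed with stimulation. They and Socs4, which did not pass a test, are the 4 members whose promoters were read from the RefSeq promoter table. Promoters of the other members were not searched, which does not show that they lack an entry there. Each window runs from 250 bases before to 50 bases after the start site on GRCm38.p6, read 5′ to 3′ along the gene: chr9:107296409-107296708 on the plus strand for Cish, chr11:117969317-117969616 on the minus strand for Socs3 and chr16:10785487-10785786 on the minus strand for Socs1. Capitals mark TTCNNNGAA, the core letters of the site that STAT dimers bind, which is its own reverse complement.
Cish: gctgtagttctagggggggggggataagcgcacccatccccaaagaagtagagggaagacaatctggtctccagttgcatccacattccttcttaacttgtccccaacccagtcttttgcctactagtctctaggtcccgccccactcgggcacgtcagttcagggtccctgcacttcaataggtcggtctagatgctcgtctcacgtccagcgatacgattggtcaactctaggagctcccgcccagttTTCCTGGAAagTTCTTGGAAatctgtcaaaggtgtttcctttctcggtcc
Socs3: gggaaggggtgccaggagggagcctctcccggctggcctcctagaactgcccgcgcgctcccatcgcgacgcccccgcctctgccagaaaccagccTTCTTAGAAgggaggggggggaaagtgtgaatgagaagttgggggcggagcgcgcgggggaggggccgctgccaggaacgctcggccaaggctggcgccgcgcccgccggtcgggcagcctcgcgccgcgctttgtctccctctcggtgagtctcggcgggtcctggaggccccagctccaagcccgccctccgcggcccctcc
Socs1: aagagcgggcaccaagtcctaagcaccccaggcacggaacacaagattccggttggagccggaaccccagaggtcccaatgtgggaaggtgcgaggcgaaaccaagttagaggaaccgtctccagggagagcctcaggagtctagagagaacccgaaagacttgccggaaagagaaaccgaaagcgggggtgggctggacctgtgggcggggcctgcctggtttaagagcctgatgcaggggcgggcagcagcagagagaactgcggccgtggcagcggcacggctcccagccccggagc
The Cish window held 2 matches, TTCCTGGAA with its first base at position 0 (the start site) and TTCTTGGAA from position 11. The Socs3 window held 1 match, TTCTTAGAA, at positions -154 to -146 from the start site. For Cish and Socs3 the RefSeq start site used lies inside the gene span given below, so these positions hold for that start site only. No match lay in these windows of Socs1 and Socs4, and the same ends spaced by 4 instead of 3 free bases, the spacing STAT6 prefers, matched in none of the 4. Of 32851 promoter windows of the same length in the table, 8.30% held at least 1 TTCNNNGAA and 0.457% held at least 2, while 6.95% held at least 1 match with the wider spacing. These matches are letters in a window and do not show binding.

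Cish (GRCm38, chr9:107296026-107302784, plus strand) encodes CIS, which competes with STAT5 for docking sites on cytokine receptors. Its level was 4.55, 4.16 and 3.96 CPM in unstimulated replicates 1 to 3. At DC 8 h it was 34.0, 115 and 43.8 CPM, and at DC 22 h it was 29.4, 81.5 and 27.8 CPM. All 6 DC libraries therefore lay above all 3 unstimulated libraries, and replicate 2 was the highest at both times. Cish rose 15.1-fold at DC 8 h (log2 fold change 3.92 ± 0.55 SE, adjusted p = 0.000351 by edgeR's quasi-likelihood test with Benjamini-Hochberg adjustment over all 10831 genes tested). At DC 22 h it rose 10.9-fold (3.44 ± 0.54, adjusted p = 0.00101 by edgeR). Without replicate 2 of the DC group the log2 fold changes were 3.19 at DC 8 h and 2.77 at DC 22 h, and both calls held (adjusted p = 0.00122 and 0.00269 by edgeR). With immunofilaments the values were 10.7, 8.95 and 4.02 CPM at 8 h and 3.09, 2.27 and 4.85 CPM at 22 h, ranges that overlapped the unstimulated libraries. The log2 fold change against unstimulated cells was 0.91 ± 0.57 at IF 8 h (adjusted p = 0.361 by edgeR) and -0.27 ± 0.56 at IF 22 h (adjusted p = 0.842 by edgeR). In the order of mean levels, DC 8 h and DC 22 h overlapped, both lay clear of the other groups, and IF 8 h, unstimulated and IF 22 h overlapped from neighbour to neighbour. Cish shares 479 exonic bases with the antisense gene Gm17041 and 261 with the pseudogene Gm17040, both on the opposite strand. Whether the counting used strand is not given in the sources used here, so reads of these genes cannot be told apart from those of Cish.

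Socs2 (chr10:95385362-95417180, minus strand), whose product is best known for limiting growth hormone and STAT5 signalling, was at most 2.79 CPM outside the DC groups. It was close to the detection limit at IF 8 h and in unstimulated replicates 2 and 3. Unstimulated replicates 1 to 3 had 19, 1 and 0 counts, or 2.79, 0.181 and 0 CPM, and the count of 0 allows up to 0.698 CPM (3 counts, for counting error only). IF 8 h had 1, 0 and 5 counts, or 0.178, 0 and 1.34 CPM. IF 22 h had 12, 12 and 38 counts, or 1.43, 1.43 and 1.94 CPM. These 9 libraries overlapped, apart from a gap between IF 8 h and IF 22 h. At DC 8 h Socs2 had 333, 161 and 90 counts, or 33.0, 20.0 and 13.2 CPM. At DC 22 h it had 241, 115 and 160 counts, or 27.4, 12.7 and 13.7 CPM. Every DC library lay above every other library, and replicate 1 was the highest at both times. Against unstimulated cells Socs2 rose 19.7-fold at DC 8 h (log2 fold change 4.30 ± 0.77, adjusted p = 0.00265 by edgeR) and 15.9-fold at DC 22 h (3.99 ± 0.77, adjusted p = 0.00406 by edgeR). The size rests on unstimulated replicate 1, which holds 19 of the 20 unstimulated counts. Without it the fitted log2 fold changes were 7.57 and 7.28, values that depend on the prior count because the remaining pair of libraries held 1 count. The change at IF 8 h was -1.15 ± 1.10 (adjusted p = 0.579 by edgeR) and at IF 22 h 0.55 ± 0.80 (adjusted p = 0.763 by edgeR), and without unstimulated replicate 1 the first turned to 2.12 and the second to 3.82 (adjusted p = 0.0852 by edgeR), again values that depend on the prior count. Without unstimulated replicate 2 or 3 the IF 22 h change was 0.0712 or 0.0772.

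Socs1 (chr16:10782240-10785536, minus strand) encodes the main brake on interferon-gamma signalling and also binds JAK kinases downstream of IL-2. Unstimulated libraries lay at 109.8, 131 and 113 CPM. At 8 h the values were 239, 190.3 and 257 CPM with immunofilaments and 273, 319 and 275 CPM with dendritic cells. At 22 h they were 132, 214 and 150.1 CPM with immunofilaments and 234, 448 and 269 CPM with dendritic cells. Every stimulated library lay above every unstimulated library, narrowly so at IF 22 h. Socs1 rose 1.94-fold at IF 8 h (log2 fold change 0.96 ± 0.23, adjusted p = 0.0189 by edgeR). With dendritic cells it rose 2.45-fold at 8 h (1.29 ± 0.23, adjusted p = 0.00272 by edgeR) and 2.69-fold at 22 h (1.43 ± 0.23, adjusted p = 0.00129 by edgeR). The change at IF 22 h, 0.49 ± 0.23, did not pass (adjusted p = 0.244 by edgeR). The IF 8 h call was lost without IF 8 h replicate 1 (adjusted p = 0.0647) or 3 (0.0778) or without unstimulated replicate 1 (0.0766) or 3 (0.0742), all by edgeR. From the highest mean downward, DC 22 h and DC 8 h overlapped, DC 8 h lay clear of IF 8 h, IF 8 h and IF 22 h overlapped, and IF 22 h lay clear of unstimulated cells.

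Socs3 (chr11:117966079-117970047, minus strand), whose product limits signalling through the IL-6 receptor chain gp130 and the IL-12 receptor, fell with immunofilaments and rose with dendritic cells at the later time. Its level was 37.1, 29.1 and 39.1 CPM in unstimulated cells. With immunofilaments it was 10.7, 8.29 and 9.91 CPM at 8 h and 19.2, 13.6 and 15.3 CPM at 22 h. All 6 IF libraries lay below all unstimulated libraries, and those of 8 h lay below those of 22 h. With dendritic cells it was 48.1, 36.1 and 70.6 CPM at 8 h, a range that reached into the unstimulated one, and 104, 62.3 and 143 CPM at 22 h, which did not. Replicate 2 was the lowest DC library at both times, unlike for Cish and Socs1. The fall was 3.61-fold at IF 8 h (log2 fold change -1.85 ± 0.32, adjusted p = 0.00172 by edgeR) and 2.19-fold at IF 22 h (-1.13 ± 0.29, adjusted p = 0.0293 by edgeR). The rise at DC 22 h was 2.95-fold (1.56 ± 0.29, adjusted p = 0.00314 by edgeR), and the change at DC 8 h was 0.56 ± 0.28 (adjusted p = 0.284 by edgeR). The IF 22 h call was lost without unstimulated replicate 1 (adjusted p = 0.0851) or 3 (0.0983), without IF 22 h replicate 2 (0.127) or 3 (0.115), and without both of the latter (0.517, where the lone IF 22 h library is assumed to vary like the other groups), by edgeR. It was also lost with library size alone as the scaling (adjusted p = 0.0657) and after thinning (0.0651), by edgeR.

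Socs5 (chr17:87107679-87137839, plus strand) encodes a member with a long amino-terminal region, studied for its effects on IL-4 and epidermal growth factor receptors. It was at 3.96, 3.07 and 3.03 CPM in unstimulated cells. With immunofilaments it was at 10.7, 9.95 and 5.63 CPM at 8 h and 8.45, 12.2 and 9.85 CPM at 22 h. With dendritic cells it was at 12.1, 11.6 and 11.3 CPM at 8 h and 9.33, 7.30 and 8.63 CPM at 22 h. All 12 stimulated libraries lay above the unstimulated ones, and among the stimulated groups every neighbouring pair of means had overlapping ranges. Socs5 rose in all 4 comparisons with unstimulated cells, the only member to do so by this test. The rise was 2.60-fold at IF 8 h (log2 fold change 1.38 ± 0.32, adjusted p = 0.0154 by edgeR) and 3.44-fold at DC 8 h (1.78 ± 0.31, adjusted p = 0.00232 by edgeR). At 22 h the log2 fold change was 1.59 ± 0.31 with immunofilaments (adjusted p = 0.00579 by edgeR) and 1.32 ± 0.31 with dendritic cells (a 2.49-fold rise, adjusted p = 0.0155 by edgeR). The DC 8 h call held in all 13 alternative fits. The IF 8 h call was lost without unstimulated replicate 2 (adjusted p = 0.0589) or 3 (0.056) or IF 8 h replicate 1 (0.0702), or when the 3 other groups were left out of the model (0.0709), by edgeR. The DC 22 h call was lost without unstimulated replicate 2 (adjusted p = 0.0604) or 3 (0.058) or DC 22 h replicate 1 (0.0535), or again without the 3 other groups (0.0712), by edgeR. The IF 22 h call was lost without IF 22 h replicates 2 and 3 (adjusted p = 0.236 by edgeR).

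Socs4, Socs6 and Socs7 passed the test in no comparison with unstimulated cells. Socs4 (chr14:47276931-47296102, plus strand), the closest relative of Socs5, lay between 0.663 CPM (IF 8 h replicate 2, 2 counts) and 12.3 CPM (unstimulated replicate 3), with log2 fold changes of -1.35 ± 0.60 and -0.76 ± 0.56 after 8 h and 22 h of immunofilaments. With dendritic cells its changes were -0.99 ± 0.57 and -0.26 ± 0.56. Socs6 (chr18:88665224-88927481, minus strand), which has been linked to the Kit receptor, lay between 1.61 CPM (IF 8 h replicate 1) and 11.4 CPM (unstimulated replicate 3). Its log2 fold changes ran from -0.96 ± 0.48 at DC 22 h to -0.23 ± 0.47 at IF 22 h. Socs7 (chr11:97362551-97398542, plus strand), which has been linked to insulin signalling, lay between 17.9 CPM (IF 22 h replicate 3) and 37.1 CPM (DC 22 h replicate 2). Its log2 fold changes were -0.19 ± 0.23 and -0.54 ± 0.22 after 8 h and 22 h of immunofilaments and 0.00 ± 0.22 at both times with dendritic cells. The smallest adjusted p among these 12 results was 0.179, for Socs7 at IF 22 h, by edgeR. For Socs4 the IF 8 h, DC 8 h and IF 22 h libraries all lay below the lowest unstimulated library (at most 4.82, 5.15 and 5.02 CPM against 5.60 CPM). The DC 22 h libraries of Socs6 (at most 4.31 CPM) lay below its lowest unstimulated library (4.52 CPM) and below those of DC 8 h. Ranges of groups next to each other in the order of means overlapped for Socs4, Socs6 and Socs7.

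**Figure D2:**
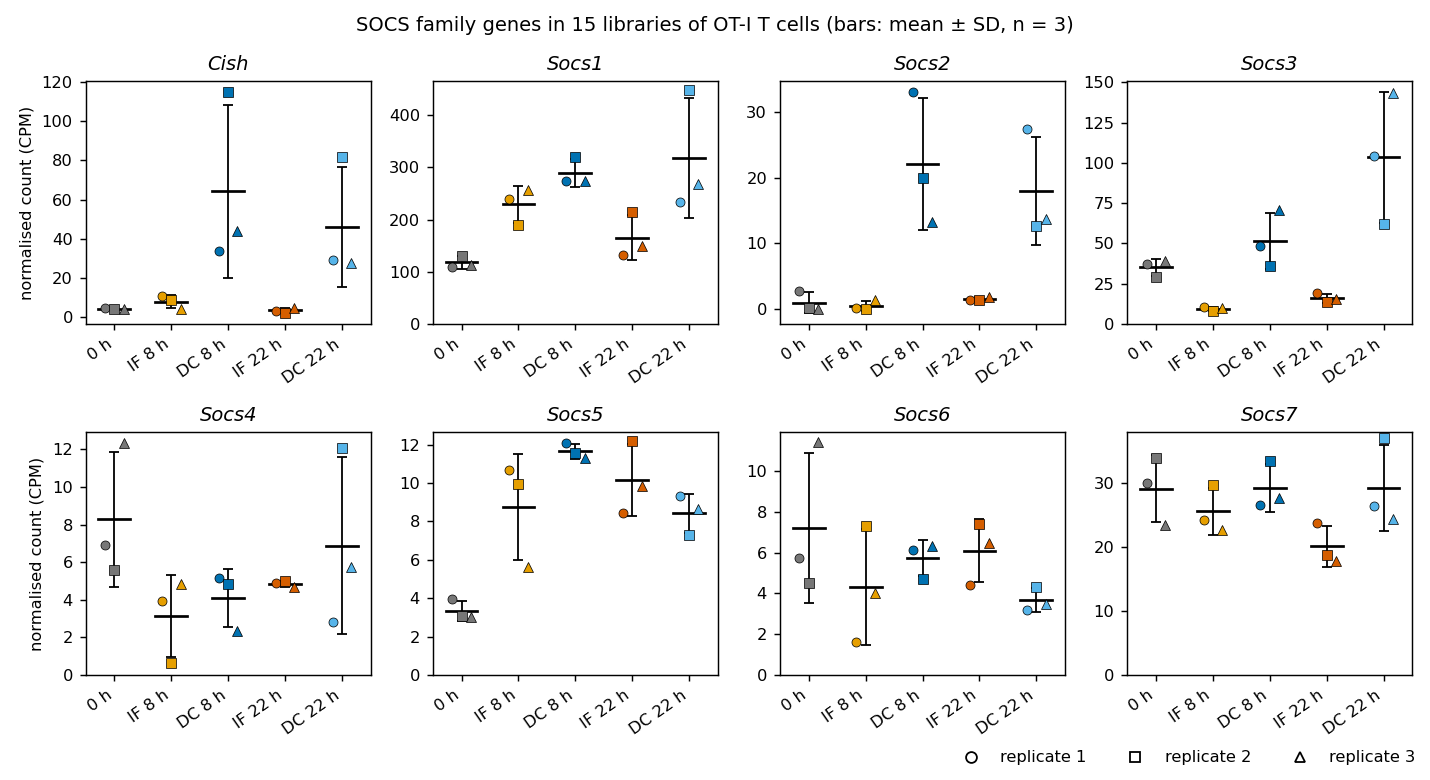
Normalised read counts (CPM, y axes, each starting near 0 on its own scale) of the 8 genes in the 5 groups (x axes). Symbols are libraries, with the replicate number as shape, and bars are the mean ± SD of 3; Cish and Socs2 are highest in the 6 DC libraries, Socs3 is below the unstimulated libraries in all 6 IF libraries, and Socs5 is above them in all 12 stimulated libraries.

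Counted over the family, 2 members rose (Socs1, Socs5) and 1 fell (Socs3) at IF 8 h, where 3.04% of all tested genes were called higher, 4.72% lower and 7.76% in either direction. At DC 8 h 4 members rose (Cish, Socs1, Socs2, Socs5) and 0 fell, against 2.75% of tested genes higher, 4.07% lower and 6.82% either way. At IF 22 h 1 rose (Socs5) and 1 fell (Socs3), against 2.63% higher, 3.44% lower and 6.08% either way. Without IF 22 h replicates 2 and 3, 0 members and 0.833% of all tested genes were called in that comparison. At DC 22 h 5 rose (all but Socs4, Socs6 and Socs7) and 0 fell, against 3.41% higher, 4.35% lower and 7.76% either way. The members called were a larger share of the family than of all tested genes in each comparison with all libraries included. The family was chosen with these data known, for a difference between the same IF and DC libraries. This larger share is therefore not an independent result. The median log2 fold change over the 8 members was -0.49 (8 h) and -0.25 (22 h) with immunofilaments, beside 0.02 and 0.01 over all tested genes. With dendritic cells it was 0.92 and 1.37, beside 0.04 and 0.04. With 1 library left out, the share of all tested genes called in either direction ran from 3.75% to 5.13% (8 h) and 2.53% to 8.49% (22 h) with immunofilaments, and from 3.61% to 5.94% and 4.06% to 8.81% with dendritic cells. These 4 comparisons share the unstimulated libraries and so are not independent of each other. All 8 members passed the filter on low counts.

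**Figure D3:**
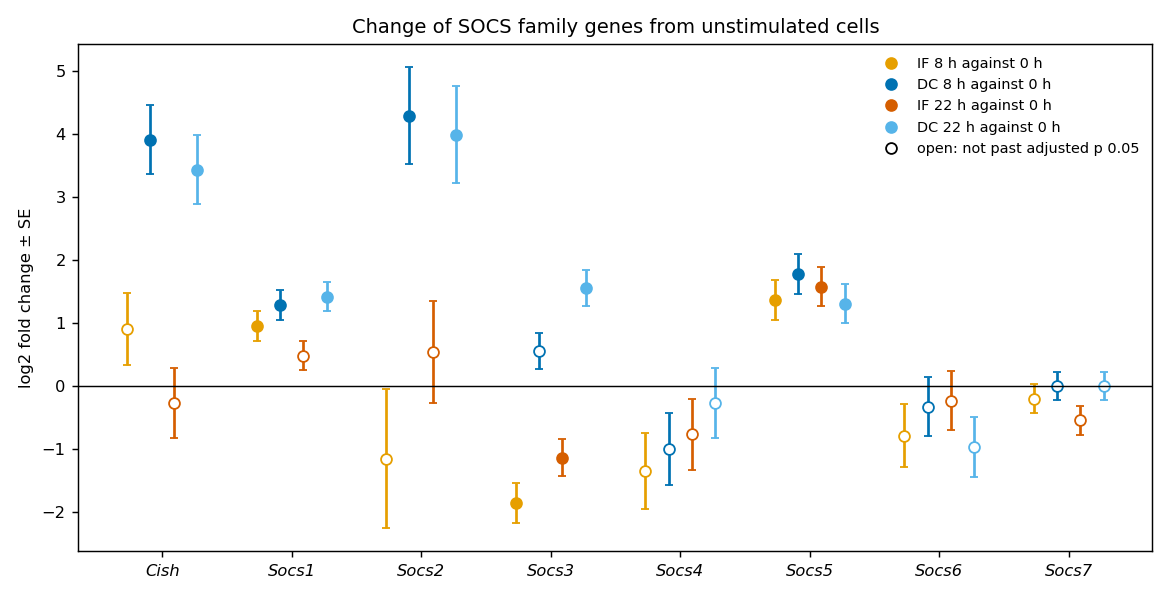
Log2 fold change ± SE (y axis) of each gene (x axis) in the 4 stimulated groups against unstimulated cells; filled points pass an adjusted p of 0.05 by edgeR and open points do not. Cish and Socs2 lie at 3.44 or above in the DC groups, Socs3 is below 0 in both IF groups, and all 4 Socs5 points are filled.

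Between the 2 times within a stimulus, 0 members passed by edgeR on the filtered genes. From IF 8 h to IF 22 h, 1.12% of tested genes were called by edgeR (0.637% higher, 0.48% lower; 0.215% to 4.85% in all with 1 library left out, and 0 without IF 22 h replicates 2 and 3), and 0 members were called by edgeR or DESeq2 on the filtered genes (1 by edgeR with no low-count filter, Cish, adjusted p = 0.0324), with 2 members at an unadjusted p under 0.05. Socs3 had a log2 fold change of 0.72 ± 0.31 (adjusted p = 0.290 by edgeR), Cish -1.18 ± 0.54 (0.320) and Socs1 -0.47 ± 0.23 (0.349). From DC 8 h to DC 22 h, 0.48% of tested genes were called by edgeR (0.379% higher, 0.102% lower; 0.00898% to 1.24% in all with 1 library left out, and 0 when only these groups were fitted), with 0 members called on the filtered genes (1 by edgeR with no low-count filter, Socs3, adjusted p = 0.00666) and 1 member at an unadjusted p under 0.05. That member was Socs3, at 1.00 ± 0.28 (adjusted p = 0.166 by edgeR), which DESeq2 did call (adjusted p = 0.0489). The log2 fold change between these times was -0.47 ± 0.46 for Cish, -0.30 ± 0.61 for Socs2, 0.13 ± 0.23 for Socs1 and -0.47 ± 0.29 for Socs5.

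The direct difference between the stimuli is what the family was chosen on, so it is described without a test. At 8 h the log2 difference of IF from DC was -5.44 ± 0.91 for Socs2, -3.00 ± 0.52 for Cish and -2.41 ± 0.32 for Socs3. At 22 h it was -3.45 ± 0.70 for Socs2, -3.71 ± 0.53 for Cish and -2.69 ± 0.30 for Socs3. For these 3 genes every IF library lay below every DC library of the same time, with 8 h levels in IF of at most 1.34 CPM for Socs2, 10.7 CPM for Cish and 10.7 CPM for Socs3. The Socs2 difference at 8 h moved to -7.42 without IF 8 h replicate 3, which holds 5 of its 6 counts. Without DC replicate 2 the Cish differences were -2.28 at 8 h and -3.02 at 22 h. Socs1 differed by -0.33 ± 0.23 at 8 h and -0.94 ± 0.23 at 22 h, with no overlap at either time. Socs5 differed by -0.41 ± 0.30 at 8 h, without overlap, and by 0.27 ± 0.29 at 22 h, with overlap. Socs4 overlapped at both times, at -0.36 ± 0.60 and -0.50 ± 0.55, and changed sign without IF 8 h replicate 2 (0.0701) and DC 22 h replicate 2 (0.16), while Socs6 (0.73 ± 0.47) and Socs7 (-0.54 ± 0.22) overlapped at 8 h and not at 22 h. Without IF 22 h replicates 2 and 3 the 22 h differences were -3.63 for Socs2, -3.89 for Cish, -2.43 for Socs3, -1.26 for Socs1, 0.00363 for Socs5, -0.49 for Socs4, 0.26 for Socs6 and -0.30 for Socs7.

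Within the DC groups the order of the replicates differed between members. In replicate 2 Cish and Socs1 were highest and Socs3 lowest at both 8 h and 22 h, while Socs2 was highest in replicate 1. Over all 15 libraries, which share the differences between groups, the correlation of log2 CPM was 0.79 for Socs1 with Cish (Spearman's rho 0.78), 0.75 for Socs2 with Cish (0.67), 0.71 for Socs2 with Socs3 (0.69) and 0.61 for Socs3 with Cish (0.52). Socs1 and Socs3 had 0.28 (0.32). These are descriptions over the same libraries and carry no test.

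Genes outside the family with the most similar pattern were sought among 7855 genes with a mean of at least 50 counts, by Pearson's correlation of log2 CPM over the 15 libraries. Closest to Cish were Bcl2l1, which encodes the survival protein Bcl-xL (r = 0.94, Spearman's rho 0.84), Bcl3, an NF-κB cofactor (0.91, 0.79), and Cd83 (0.91, 0.83). The part of dendritic cell RNA in these similarities was not tested. Closest to Socs1 were Ly6a, an interferon-inducible surface protein (0.93, 0.92), Lad1 (0.91, 0.94) and Parp14 (0.90, 0.94). Closest to Socs3 were Ncoa7 (0.89, 0.85), the kinase gene Jak3 (0.87, 0.81) and Gadd45g (0.86, 0.79), and closest to Socs2 were again Ncoa7 (0.86, 0.74), then Fxr1 (0.83, 0.79) and Skil (0.83, 0.86). Closest to Socs5 were Lamp2, a lysosomal membrane protein (0.90, 0.88), Stx12 (0.90, 0.72) and 2010315B03Rik (0.88, 0.71). The 15 libraries form 5 groups, so these values hold differences between groups as well as within them.

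The kinases, receptors and targets of the pathway were read from lists of other genes, whose counts stand beside 7.76% (8 h) and 6.08% (22 h) of all tested genes called in either direction with immunofilaments and 6.82% and 7.76% with dendritic cells. Of 11 JAK and STAT genes, 3 rose and 0 fell at DC 8 h: Jak2 (84.8 ± 4.47 against 45.1 ± 2.01 CPM, SD, n = 3; log2 fold change 0.91 ± 0.17, adjusted p = 0.00341 by edgeR), Stat3 (0.81 ± 0.18, adjusted p = 0.012 by edgeR) and Stat5a (1.00 ± 0.25, adjusted p = 0.0227 by edgeR). With 1 library left out, 1 to 3 of the 11 were called: the Stat5a call was lost without any 1 unstimulated library or DC 8 h replicate 2, and the Stat3 call without unstimulated replicate 2 or 3 or DC 8 h replicate 2. At IF 8 h Jak3 fell (-0.998 ± 0.29, adjusted p = 0.0441 by edgeR) and no gene of the list rose, so that 1 of 11 was called beside 7.76% of all tested genes, with 0 to 2 called when 1 library was left out. The Jak3 call was lost without any 1 of the 6 libraries compared (adjusted p up to 0.141 by edgeR). At IF 22 h Stat4 rose (1.13 ± 0.23, adjusted p = 0.00681 by edgeR), a call lost without IF 22 h replicates 2 and 3 (adjusted p = 0.111 by edgeR). At DC 22 h 0 were called by edgeR, 2 by DESeq2, and 3 had an unadjusted p under 0.05. Of 18 tested receptor chains 1 rose at DC 8 h, a share below the 6.82% of all tested genes called there: Il2ra, the high-affinity IL-2 receptor chain (4.70 ± 0.97, adjusted p = 0.00673 by edgeR). At IF 8 h 2 receptor chains rose, Il2ra (4.54 ± 0.97, adjusted p = 0.00961 by edgeR, and 0.0529 without unstimulated replicate 2) and the interferon receptor chain Ifnar1 (0.74 ± 0.20, adjusted p = 0.036 by edgeR, lost without any 1 of the 6 libraries compared, up to 0.139), and 2 fell, among them Il4ra (-0.92 ± 0.19, adjusted p = 0.00763 by edgeR). At IF 22 h 1 receptor chain rose and 4 fell, among them Il4ra, Il2rg and Il27ra (the last lost without IF 22 h replicate 2 or 3), and at DC 22 h 1 rose and 2 fell. Without unstimulated replicate 1 none of these 3 was called at DC 22 h, and 1 was without unstimulated replicate 2 or DC 22 h replicate 1. At IF 8 h 1 to 3 and at IF 22 h 2 to 6 receptor chains were called with 1 library left out.

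Against the same shares of all tested genes, among 23 known targets of IL-2 and STAT5, 7 rose and 1 fell at DC 8 h, 5 rose and 1 fell at DC 22 h, and 3 rose and 2 fell at each IF time. Tnfrsf9, the costimulatory receptor 4-1BB, rose in all 4 groups, from 4.88 ± 1.33 CPM (SD, n = 3) in unstimulated cells to 173 ± 47.4 CPM at IF 8 h and 143 ± 102 CPM at DC 8 h. Bcl2, a survival gene, fell from 280.1 ± 39.7 CPM to 96.0 ± 11.8 CPM at IF 8 h and 93.5 ± 14.6 CPM at DC 8 h. Tnfrsf18 rose at DC 8 h (1.21 ± 0.20, adjusted p = 0.00141 by edgeR) and the kinase gene Pim2 at DC 22 h (0.88 ± 0.18, adjusted p = 0.00579 by edgeR). Among 22 interferon targets, 4 rose and 6 fell at IF 8 h, and 0 rose and 13 fell by IF 22 h. With dendritic cells 4 rose and 0 fell at 8 h, and 4 rose and 2 fell at 22 h. The 6 calls at DC 22 h became 0 without unstimulated replicate 3 or DC 22 h replicate 2, 1 without unstimulated replicate 2 and 2 without unstimulated replicate 1. The 4 calls at DC 8 h became 2 without unstimulated replicate 1 or 3 or DC 8 h replicate 2. With immunofilaments 5 to 8 interferon targets at 8 h and 8 to 14 at 22 h were called with 1 library left out, and 3 to 5 and 2 to 5 IL-2 targets. Gbp2, an interferon-induced GTPase, rose to 1123 ± 347 CPM at IF 8 h and 1061 ± 796 CPM at DC 8 h from 131 ± 19.4 CPM, while Mx1 fell at IF 8 h (-1.90 ± 0.31, adjusted p = 0.00129 by edgeR) and IF 22 h (-3.01 ± 0.32, adjusted p = 2.88e-05 by edgeR). Without IF 22 h replicates 2 and 3, the IF 22 h counts fell from 13 to 8 interferon targets, from 5 to 2 IL-2 targets and from 5 to 0 receptor chains.

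**Figure D4:**
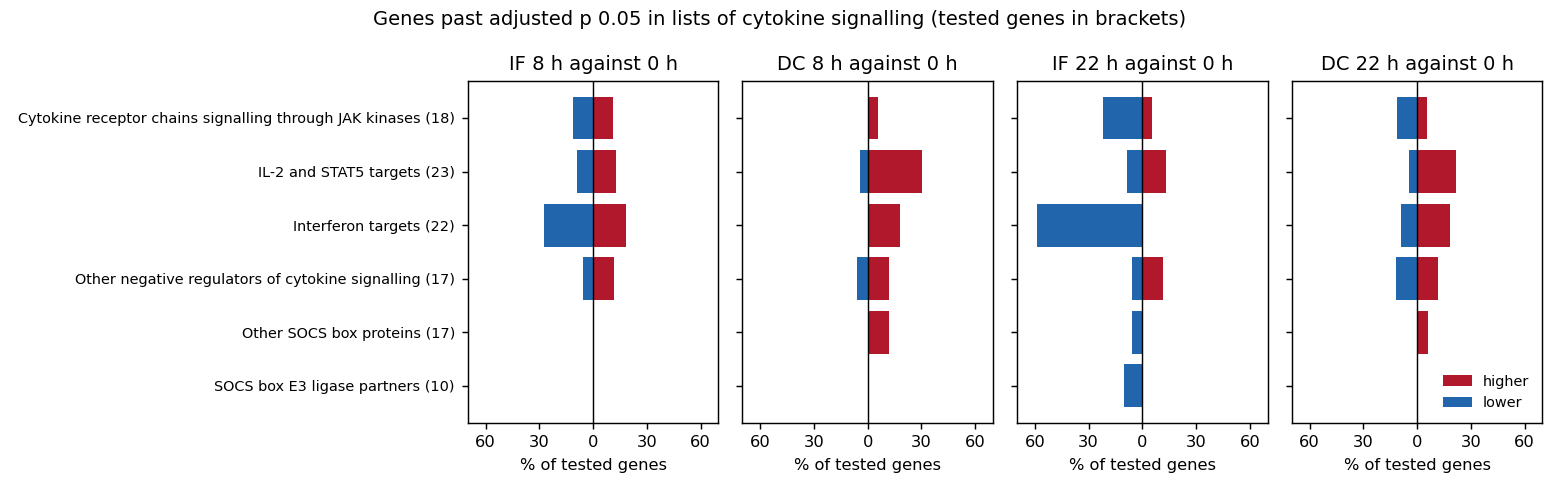
Share of the tested genes of 6 lists (y axis, number tested in brackets) called higher (right, red) or lower (left, blue) at an adjusted p of 0.05 by edgeR in the 4 stimulated groups against unstimulated cells, as % of tested genes (x axes). The longest bar is the 13 of 22 interferon targets that were lower at IF 22 h; SOCS box E3 ligase partners have a bar at IF 22 h only, where 1 of 10 was lower.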

How the data were processed

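RNA of 15 sorted T cell libraries was sequenced by an adapted CEL-seq protocol, which reads 3′ ends from a barcoded oligo-dT primer, per the labels' protocols. The authors deposited counts per gene for each library, as whole numbers without normalization. The submitters' processing notes name BWA and mm10. The counting program, annotation, use of strand and use of molecular identifiers are not given in the sources used here, so detection limits cover counting error only.

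The software was edgeR 4.0.16 on limma 3.58.1 and R 4.3.3. A low-count filter (filterByExpr, minimum count 10, minimum total 15) left 10831 of 17493 genes and, in the library that lost most, 99.88% of its counts. A quasi-likelihood model with TMM scaling and 5 group means was fitted to all libraries. Two-sided p-values were adjusted by Benjamini-Hochberg for each comparison separately, over all genes tested, and called at 0.05. The fit was also run on simulated counts with the same spread for every gene, a simpler setting than these data. No result here rests on that run. Libraries held 2892874 to 19806730 counts.

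Alternatives were DESeq2 1.42.0, its size factors, library size alone, no low-count filter, only the groups compared, a block for the replicate number, thinning of all libraries to the smallest total, each library left out in turn, and IF 22 h replicates 2 and 3 left out. The labels do not say that a replicate number ties libraries together. In DC 22 h against DC 8 h all 3 same-numbered pairs had correlated deviations above 0.1 (0.116, 0.399 and 0.238), but so did 2 pairs with different numbers (0.117 and 0.107). In no other comparison did all 3 pass 0.1 (0.067, 0.038 and 0.025 for DC 8 h against unstimulated).

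The 8 members and the gene lists were chosen with earlier results of these data known. Within a list, the 3 genes with the smallest p-value past the threshold could be named (1 gene is not reported here), and for each changed member the 3 genes with the most similar pattern. Coordinates are from GENCODE vM21 on GRCm38, the assembly that mm10 names, and the tables' chromosomes matched for all 8. Promoters are from RefSeq on GRCm38.p6.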

Additional observations from a re-analysis of the deposited data

How the results depend on the processing

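Of the 14 called changes of members, 164 of 184 alternative fits kept direction and call, 20 lost the call and 0 reversed. Cish, Socs1 and Socs2 with dendritic cells at both times, Socs3 at IF 8 h and DC 22 h, and Socs5 at DC 8 h kept their call in every alternative. With library size alone the median of all genes moved to 0.26, 0.30, 0.22 and 0.37 (IF 8 h, DC 8 h, IF 22 h, DC 22 h), so directions are relative to TMM scaling. Members called at IF 8 h numbered 3, and 1 to 3 with 1 library left out. At IF 22 h they numbered 2, 1 with library size alone or after thinning, 1 to 2 with 1 library left out, and 0 without IF 22 h replicates 2 and 3. From IF 8 h to IF 22 h 1 was called with no filter (Cish, adjusted p = 0.0324 by edgeR), and from DC 8 h to DC 22 h 1 with no filter (Socs3, 0.00666) and 1 with DESeq2. For IF against DC at 8 h, Socs2 ranged from -7.42 to -4.91 with 1 library left out. The cause of these shifts was not tested. The replicate block changed no member's call (Socs3 from DC 8 h to DC 22 h, adjusted p = 0.0568 by edgeR).

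Members with no call changed sign in some fits. With library size alone Socs7 at IF 8 h was 0.0487 and Socs4 at DC 22 h was 0.0763. Socs7 was -0.000729 at DC 8 h with DESeq2 and -0.14 at DC 22 h after thinning. From DC 8 h to DC 22 h Socs7 was -0.00713 with only the groups compared, -0.0116 with the replicate block and -0.15 after thinning. Socs5 from IF 8 h to IF 22 h was -0.0512 without IF 22 h replicates 2 and 3. With 1 library left out, the ranges were -3.12 to 2.12 (Socs2, IF 8 h), -0.56 to 0.16 (Socs6, DC 8 h), -0.12 to 0.13 (Socs7, DC 8 h), -0.47 to 0.25 (Socs6, IF 22 h), -0.91 to 0.15 (Socs4, DC 22 h), -0.18 to 0.14 (Socs7, DC 22 h) and -0.0233 to 0.40 (Socs5, IF 8 h to IF 22 h). From DC 8 h to DC 22 h they were -0.17 to 0.31 (Socs1), -0.74 to 0.11 (Socs2), -0.17 to 0.12 (Socs7) and -1.14 to 0.25 (Cish). Socs2 had 0 to 5 counts at IF 8 h, which limits its precision.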

Other observations

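The ubiquitin ligase that SOCS proteins join and other SOCS box proteins were measured in the same libraries. Of 10 tested ligase partners (elongins, cullins and their activators), Rnf7 fell at IF 22 h (-0.77 ± 0.19, adjusted p = 0.0251 by edgeR), where 6.08% of all tested genes were called, and this call was lost without unstimulated replicate 1 or 3 among others. In the other 3 comparisons with unstimulated cells 0 partners were called by edgeR, with 1 at an unadjusted p under 0.05 at IF 8 h, 0 at DC 8 h and 3 at DC 22 h, and DESeq2 called 0, 0 and 1. Of 17 other SOCS box proteins, Asb2, an ankyrin repeat protein, rose at DC 22 h from 1.85 ± 1.14 to 23.05 ± 4.74 CPM (SD, n = 3; 3.69 ± 0.64, adjusted p = 0.00194 by edgeR), a call kept in all 13 alternatives. At DC 22 h Asb2 was the only 1 of the 17 called, beside 7.76% of all tested genes. Asb2 and Lrrc41 rose at DC 8 h (2 of 17 higher, 0 to 1 called with 1 library left out), beside 6.82% of all tested genes. Spsb1 fell at IF 22 h (-2.71 ± 0.77, adjusted p = 0.0462 by edgeR, lost in 9 of 14 alternatives), or 1 of 17 beside the 6.08% given above. At IF 8 h 0 were called by edgeR, 1 by DESeq2, and 2 had an unadjusted p under 0.05.

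Of 17 other negative regulators of cytokine and receptor signalling, 2 were higher and 1 lower at IF 8 h, DC 8 h and IF 22 h, and 2 higher and 2 lower at DC 22 h, where 6.08% to 7.76% of all tested genes were called in either direction. With 1 library left out, 1 to 2 were called at IF 8 h, 3 to 4 at DC 8 h, 1 to 5 for IF 22 h and 2 to 4 for DC 22 h. Cblb, a ubiquitin ligase that restrains T cell activation, rose from 37.4 ± 2.89 CPM (SD, n = 3) to 122 ± 14.7 CPM at IF 8 h (1.71 ± 0.20, adjusted p = 5.34e-05 by edgeR), 84.3 ± 10.9 CPM at DC 8 h, 121 ± 16.1 CPM at IF 22 h and 66.6 ± 15.4 CPM at DC 22 h. The Cblb call at DC 22 h was lost in 4 of 13 alternatives (without unstimulated replicate 1 or 2 or DC 22 h replicate 1, or with the other groups left out of the model, adjusted p up to 0.0713 by edgeR). Sla, an adaptor that lowers antigen receptor levels, fell at DC 8 h (-0.75 ± 0.16, adjusted p = 0.00692 by edgeR, but 0.0585 with library size alone) and DC 22 h (-0.99 ± 0.16, adjusted p = 0.000981 by edgeR). The phosphatase gene Dusp2 fell at DC 22 h from 592 ± 70.3 to 149 ± 40.6 CPM (-1.99 ± 0.25, adjusted p = 0.000181 by edgeR). Usp18, which removes the ubiquitin-like protein ISG15, fell at IF 8 h and IF 22 h, and the receptor phosphatase gene Ptprj rose at IF 8 h, DC 8 h and IF 22 h. The Usp18 call was lost in 7 of 13 alternatives at IF 8 h (without unstimulated replicate 2 or 3 or any IF 8 h library, among others) and in 3 of 14 at IF 22 h (without unstimulated replicate 2, IF 22 h replicate 3, or IF 22 h replicates 2 and 3). The Ptprj call was lost in 5 of 12 at IF 8 h (after thinning, or without unstimulated replicate 1 or 3 or IF 8 h replicate 2 or 3). At IF 22 h it was lost in 5 of 14 (after thinning, or without unstimulated replicate 1 or 3, IF 22 h replicate 3, or IF 22 h replicates 2 and 3).

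Of 20 cytokines that act through JAK kinases, 15 were in the tables and 5 passed the filter. By edgeR 0 of these 5 were called in any comparison with unstimulated cells, with 1 or 2 at an unadjusted p under 0.05 in each, and DESeq2 called 0. Ifng lay at 15.7 ± 7.13 CPM in unstimulated cells, 8.72 ± 5.13 CPM at IF 8 h, 13.2 ± 14.96 CPM at DC 8 h, 9.82 ± 3.79 CPM at IF 22 h and 28.5 ± 40.6 CPM at DC 22 h (SD, n = 3), chosen after its values were seen. Il2 had at most 7 counts in any library.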
